A study of Mus musculus with 12 samples.

Results

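Transcripts of 8 genes of hepatic cholesterol synthesis were followed in mouse liver across 4 groups of mice. The genes were Hmgcs1, Idi1, Fdps, Fdft1, Sqle, Lss, Cyp51 and Insig1, taken by symbol from a table of 51912 counted genes, of which 8594 had enough counts to be tested and all 8 were among them. The set was named for cholesterol synthesis and uptake, but 7 of the 8 encode synthesis enzymes and Insig1 encodes a regulator, so that no uptake gene is among them.

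The study asked how CITCO, an agonist of the human constitutive androstane receptor (CAR), acts in mouse liver through that receptor. Adult male mice were dosed intraperitoneally every day for 4 days and killed on day 5. Wild-type (WT) mice received corn oil or CITCO at 10 mg/kg. The hCAR/hPXR mice carried human CAR and human pregnane X receptor (PXR) in place of the mouse receptors, the Car KO/hPXR mice lacked Car and carried human PXR in place of mouse Pxr, and both of these genotypes received CITCO at 10 mg/kg. Earlier in vitro work cited by the study proposes that CITCO also activates human PXR, which both of these genotypes carry. Each group held 3 mice, with 1 library of messenger RNA 3′ ends per mouse. The corn oil libraries analysed here came from WT mice alone, so for the humanised genotypes the effect of CITCO and that of the genotype cannot be told apart. The humanised mice were on a C57BL/6NTac background, and the strain of the WT mice and the promoters that drive the human receptors were not given in the sources used here.

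The libraries held between 1167027 and 2341572 counts, and the 3 counts below which a gene was treated as not detectable corresponded to 1.33 to 2.48 CPM (the usual unit of counts scaled to library size, here after normalisation). These limits cover counting error only. Mouse Nr1i2 and Nr1i3, which encode PXR and CAR, had 100 to 287 counts in the 6 WT libraries and 0 to 6 counts in the 6 humanised ones. All 12 libraries thus followed their label as WT or humanised. Both humanised genotypes lacked both mouse transcripts, so these counts cannot tell hCAR/hPXR from Car KO/hPXR libraries, which rests on the labels. Hepatocyte markers summed to between 19460 and 35240 CPM over 5 genes, against 6.2 to 15.3 CPM for 5 lymphocyte genes and 12.5 to 27.2 CPM for 5 cholangiocyte genes. Kupffer cell markers summed to between 327 and 413 CPM over 7 genes in hCAR/hPXR mice, between 293 and 311 CPM in Car KO/hPXR mice, between 248 and 386 CPM in WT mice given CITCO and between 214 and 285 CPM in WT mice given corn oil. In whole liver, fewer cells of a type and less RNA per cell cannot be told apart.

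Cholesterol is made from acetyl-CoA through mevalonate, isoprenoid diphosphates, squalene and lanosterol. Transcription of most enzymes of the route is driven by sterol regulatory element-binding protein 2 (SREBP2, encoded by Srebf2), which the escort protein SCAP carries to the Golgi when membrane sterol is low. The Insig proteins hold the SCAP complex in the endoplasmic reticulum when sterol is high. The liver is a main site of this synthesis, and its enzymes respond to diet, insulin and time of day.

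In GRCm38, with GENCODE M21 gene models, Hmgcs1 lies on chromosome 13 from 119690379 to 119708260 on the plus strand and Idi1 on the same chromosome from 8885501 to 8892451, also on the plus strand. Fdps lies on chromosome 3 from 89093588 to 89101959 on the minus strand, and Fdft1 on chromosome 14 from 63145150 to 63179578 on the minus strand. Sqle lies on chromosome 15 from 59315077 to 59331192 on the plus strand, and Lss on chromosome 10 from 76531588 to 76557138 on the plus strand. Cyp51 lies on chromosome 5 from 4081145 to 4104746 on the minus strand, and Insig1 on the same chromosome from 28071363 to 28078662 on the plus strand. The 3′ end of Fdft1 overlaps Ctsb and that of Cyp51 overlaps Akap9, each on the other strand, and Fdps overlaps the protein-coding model Gm43738 on its own strand. On the other strand, Hmgcs1 also overlaps Gm48342, Lss overlaps 4930483K19Rik and Idi1 overlaps Gm48574. Counts of Fdft1 and Cyp51 were fractional in all 12 libraries, those of Fdps in 5 and those of Idi1 in 3, so that reads were assigned to them in part by estimation. Their levels may be less certain than those of Hmgcs1, Sqle, Lss and Insig1, whose counts were whole in every library, but this was not measured.

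Promoter sequences of 5 of the 8 genes (Hmgcs1, Idi1, Lss, Cyp51 and Insig1) were matched in RefSeq for GRCm38.p6, each covering 250 bases before and 50 bases after the annotated start. They were searched on both strands for TCACNCCAC, a form of the sterol regulatory element, for CCAAT, the core bound by NF-Y, and for GGGCGG, the GC box bound by Sp1, since NF-Y and Sp1 are known partners of SREBP. No 2 matches overlapped. CCAAT was found in all 5 promoters and in 37.4% of the 32851 promoters in the table, and GGGCGG in all 5 and in 35.7% of the table. TCACNCCAC was found in 1 of the 5, Hmgcs1, in 0 of 13 other synthesis genes with a promoter in the table and in 1.24% of the table. A match describes the letters only, and no match says only that these letters were absent from this window. The stretches upstream of every annotated transcript start are printed for Hmgcs1 and Insig1, the pair that differed among the groups, and for Lss and Cyp51, which did not pass, 5′ to 3′ on the gene's strand with the matches on either strand in capitals, CCAAT reading ATTGG and GGGCGG reading CCGCCC where it lies on the opposite strand. The Cyp51 stretch ends before the CCAAT match of that promoter (Hmgcs1 chr13:119690101-119690350, plus strand; Insig1 chr5:28071162-28071362, plus strand; Lss chr10:76531355-76531587, plus strand; Cyp51 chr5:4104747-4104947, minus strand).
Hmgcs1: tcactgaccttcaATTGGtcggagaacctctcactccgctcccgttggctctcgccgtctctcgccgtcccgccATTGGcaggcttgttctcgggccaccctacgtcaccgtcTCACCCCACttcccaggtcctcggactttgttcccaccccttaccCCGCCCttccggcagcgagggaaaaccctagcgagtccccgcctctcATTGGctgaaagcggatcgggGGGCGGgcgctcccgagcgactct
Insig1: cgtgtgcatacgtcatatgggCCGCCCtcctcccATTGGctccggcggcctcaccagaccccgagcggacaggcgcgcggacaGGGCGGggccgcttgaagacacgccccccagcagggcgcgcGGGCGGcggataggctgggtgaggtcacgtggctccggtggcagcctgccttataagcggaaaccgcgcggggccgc
Lss: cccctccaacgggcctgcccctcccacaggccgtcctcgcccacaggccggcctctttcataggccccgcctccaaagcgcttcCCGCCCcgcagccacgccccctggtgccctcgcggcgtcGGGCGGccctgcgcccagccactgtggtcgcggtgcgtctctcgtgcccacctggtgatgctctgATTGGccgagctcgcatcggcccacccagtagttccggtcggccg
Cyp51: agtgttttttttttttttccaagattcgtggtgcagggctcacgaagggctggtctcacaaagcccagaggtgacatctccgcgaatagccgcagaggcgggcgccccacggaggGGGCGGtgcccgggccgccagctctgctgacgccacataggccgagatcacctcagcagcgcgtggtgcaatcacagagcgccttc

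Across the 4 groups 7 of the 8 genes, all but Sqle, had their highest mean in Car KO/hPXR mice given CITCO and the next highest in WT mice given corn oil, above both WT and hCAR/hPXR mice given CITCO. Summed over the 8 genes, the level was 1742 CPM ± 287 (SD, n = 3) in Car KO/hPXR mice and 1533 CPM ± 206 in WT mice given corn oil, against 1158 CPM ± 209 in hCAR/hPXR mice and 1143 CPM ± 128 in WT mice given CITCO. A test for any difference among the 4 groups, fitted on all 8594 genes, passed for 2 of the 8 genes at an adjusted p under 0.05, Hmgcs1 (adjusted p = 0.0395) and Insig1 (0.0471), where 1.42% of all genes tested passed. Fdps had an adjusted p of 0.0991 (0.0122 by DESeq2 and 0.0238 by edgeR without a filter on low counts) and the other 5 genes of 0.342 to 0.784. The calls of this test were not stable when single libraries were left out. Hmgcs1 still passed without Car KO/hPXR CITCO replicate 2, WT corn oil replicate 1 or WT CITCO replicate 3, but without any of the other 9 libraries its adjusted p lay above 0.05, up to 0.12, and that of Insig1 lay between 0.058 and 0.132 whichever library was left out.

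**Figure D1:**
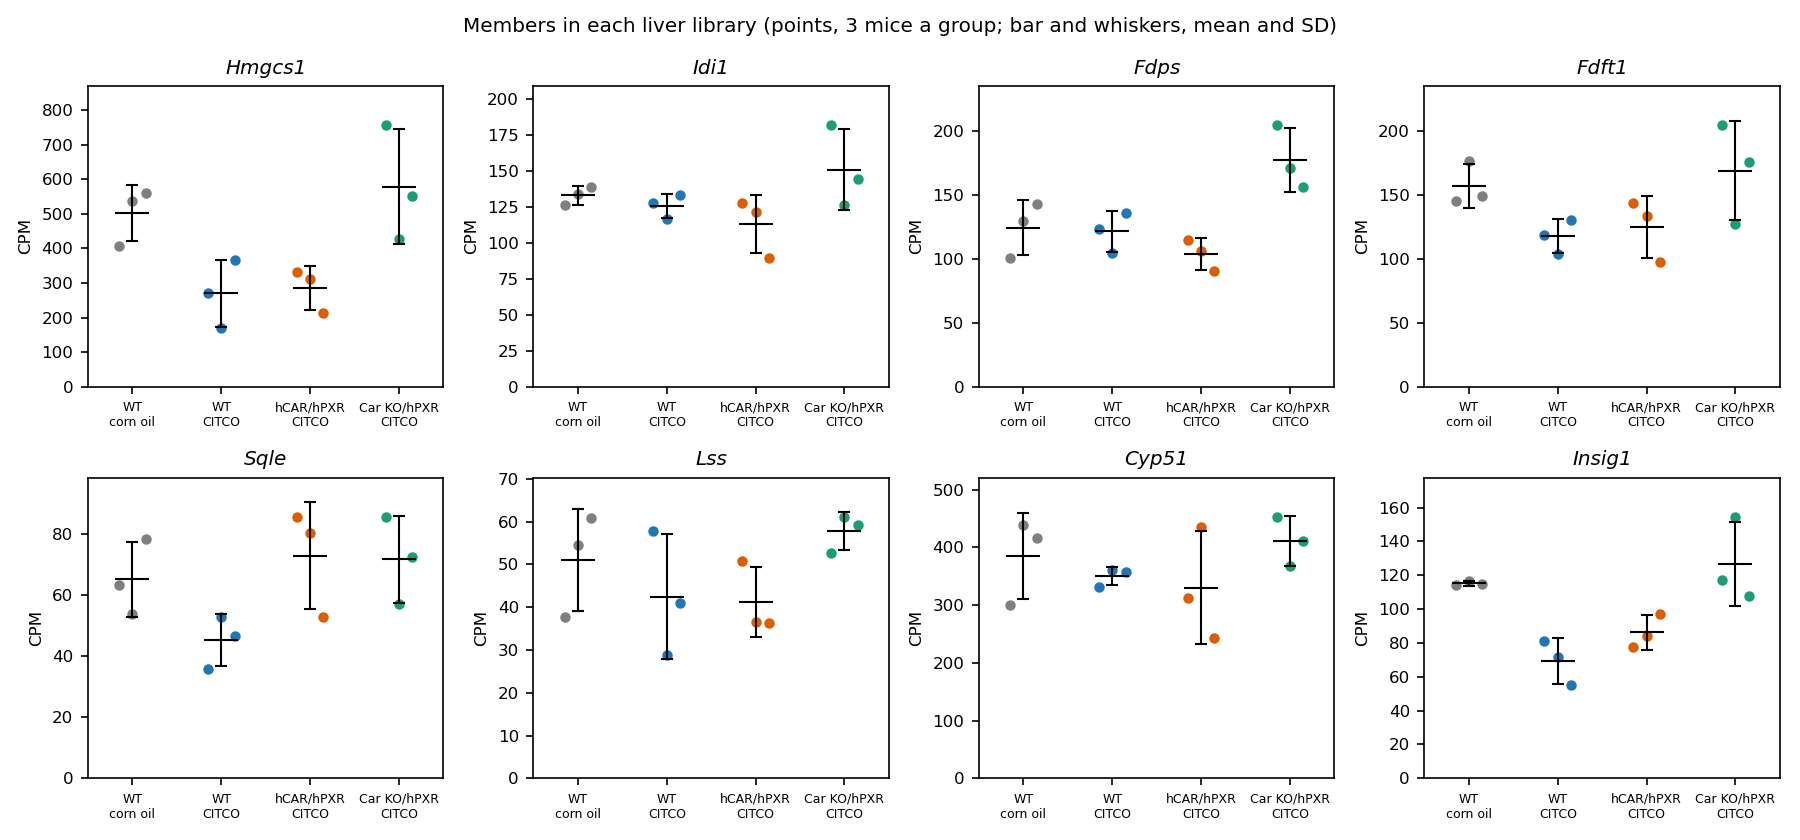
Level of each of the 8 genes in CPM (linear axes from 0) in the 12 libraries, by group. Points are mice and the bar with whiskers is the mean ± SD of 3 mice. Hmgcs1 and Insig1 lay below every WT corn oil library in all WT and hCAR/hPXR mice given CITCO, whereas Cyp51 and Idi1 overlapped between most groups.

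Hmgcs1 encodes the cytosolic HMG-CoA synthase, which acts early in the route to mevalonate. Its level was 408, 537 and 561 CPM in WT mice given corn oil, 271, 171 and 367 CPM in WT mice given CITCO, 332, 311 and 214 CPM in hCAR/hPXR mice and 756, 427 and 551 CPM in Car KO/hPXR mice. All 6 libraries of WT and hCAR/hPXR mice given CITCO lay below the other 6 libraries, while the levels overlapped between WT corn oil and Car KO/hPXR mice and between WT CITCO and hCAR/hPXR mice. The group means, from high to low, were those of Car KO/hPXR (578 CPM ± 166), WT corn oil (502 CPM ± 82), hCAR/hPXR (286 CPM ± 63.3) and WT CITCO (269.7 CPM ± 97.7).

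Insig1 was the other gene to pass the test among groups. It had 114, 117 and 115 CPM in WT mice given corn oil, 81.4, 71.9 and 54.9 CPM in WT mice given CITCO, 77.3, 84.1 and 97.3 CPM in hCAR/hPXR mice and 117, 155 and 108 CPM in Car KO/hPXR mice. The WT corn oil mice were close to each other (115 CPM ± 1.22) and lay above all 6 mice of the WT CITCO (69.4 CPM ± 13.4) and hCAR/hPXR (86.2 CPM ± 10.1) groups, as did the Car KO/hPXR mice (127 CPM ± 24.6).

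Fdps encodes farnesyl diphosphate synthase, the enzyme at the branch to squalene, dolichol and prenylated proteins. Its level was 101, 129.8 and 143 CPM in WT mice given corn oil, 124, 105 and 136 CPM in WT mice given CITCO, 115, 106 and 90.7 CPM in hCAR/hPXR mice and 205, 171 and 156 CPM in Car KO/hPXR mice. Here the Car KO/hPXR mice (177 CPM ± 24.9) stood above the 9 other libraries, and the remaining groups overlapped.

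Sqle encodes squalene epoxidase, which adds oxygen to squalene and is a rate-controlling step of the later route. It had 63.4, 53.8 and 78.2 CPM in WT mice given corn oil, 35.9, 52.7 and 46.6 CPM in WT mice given CITCO, 85.5, 80.1 and 52.8 CPM in hCAR/hPXR mice and 85.4, 57.0 and 72.3 CPM in Car KO/hPXR mice. Sqle departed from the order of the others, since its hCAR/hPXR mean (72.8 CPM ± 17.6) was the highest of the 4 and the WT CITCO mean (45.1 CPM ± 8.52) stood alone at the bottom. The lowest hCAR/hPXR library had 52.76 CPM and the highest WT CITCO library 52.74 CPM, so these groups were separated only narrowly.

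The other 4 enzymes had their highest mean in Car KO/hPXR mice and the next highest in WT mice given corn oil. Fdft1, squalene synthase, ranged from 104 to 131 CPM in WT mice given CITCO and from 145 to 177 CPM in WT mice given corn oil. Idi1, which interconverts the isoprenoid diphosphates, ranged from 89.9 to 128 CPM in hCAR/hPXR mice and from 127 to 182 CPM in Car KO/hPXR mice. Lss, which closes squalene epoxide into lanosterol, ranged from 36.3 to 50.7 CPM in hCAR/hPXR mice and from 52.7 to 61.2 CPM in Car KO/hPXR mice. Cyp51, the P450 that demethylates lanosterol, ranged from 242 to 436 CPM in hCAR/hPXR mice and from 367 to 453 CPM in Car KO/hPXR mice. For Idi1, Lss and Cyp51 every pair of neighbouring groups in the order of means overlapped, and for Fdft1 only the WT corn oil and hCAR/hPXR mice did not.

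Single libraries stood out within their groups. WT corn oil replicate 1 was the lowest of its group for 7 of the 8 genes and hCAR/hPXR CITCO replicate 3, the shallowest library, also for 7 of 8, while Car KO/hPXR CITCO replicate 1 was the highest of its group for 6. The gene that broke the order in hCAR/hPXR CITCO replicate 3 was Insig1, which was highest there.

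CITCO in WT mice was compared with corn oil to ask what the compound changes in mice that carry the mouse receptors. Whether those receptors took part was not tested. All 8 genes had a lower mean with CITCO, with a median log2 fold change of -0.33, beside a median of -0.000278 over all genes tested. Hmgcs1 and Insig1 differed most, with log2 fold changes of -0.89 ± 0.25 (SE) and -0.73 ± 0.18. Neither passed (adjusted p = 0.207 and 0.14), and 0 of the 8 genes were called at an adjusted p under 0.05 and a fold over 1.5 by edgeR, where 0.233% of all genes were called. At an unadjusted p under 0.05 the count was 4 of 8 (Hmgcs1, Insig1, Sqle and Fdft1), against 9.13% of all genes. The same 4 lay below corn oil without overlap, against 7.84% of all genes, and 0 of 8 lay above it, against 6.88%.

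Values for the other genes were smaller, and differences between genes were not tested. Sqle differed by -0.53 ± 0.23 and Fdft1 by -0.41 ± 0.19 on the log2 scale. For Fdps the log2 fold change was -0.03 with a 95% interval of -0.40 to 0.34, for Idi1 -0.08 (-0.43 to 0.28) and for Cyp51 -0.13 (-0.54 to 0.27), so that a 1.5-fold fall lay outside the intervals of these 3 genes. With each of the 6 libraries left out in turn, 7 or 8 of the 8 genes stayed negative, Fdps being the gene that changed sign (without WT corn oil replicate 2 or 3 or WT CITCO replicate 2), and the median lay between -0.449 and -0.232. Without a filter on low counts Hmgcs1 and Insig1 were both called lower, while DESeq2 called neither. Among all genes, 6 to 179 were called over the alternatives, against 20 by the main test.

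Car KO/hPXR mice were compared with WT mice, both given CITCO, which asks what the absence of CAR together with human PXR changes. The WT CITCO libraries are those of the comparison before it, so the values are not independent of the ones there. All 8 genes were higher in Car KO/hPXR mice, with a median log2 fold change of 0.536 against -0.00395 over all genes tested, and this direction held for all 8 genes with any of the 6 libraries left out (median 0.438 to 0.632). Hmgcs1 had a log2 fold change of 1.10 ± 0.25 (2.15-fold, adjusted p = 0.0766) and Insig1 of 0.86 ± 0.18 (1.82-fold, adjusted p = 0.0529). The log2 fold change was 0.67 ± 0.23 for Sqle, 0.55 ± 0.17 for Fdps and 0.53 ± 0.19 for Fdft1 (adjusted p = 0.301, 0.256 and 0.346). By the main test 0 of 8 genes were called, beside 0.256% of all genes, 0.0931% of them lower.

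In the same comparison 5 of 8 genes had an unadjusted p under 0.05, against 9.3% of all genes, and 5 lay above the WT mice without overlap, against 7.41% of all genes, with 0 below, against 6.81%. The call was sensitive to the method for the leading pair of genes. Hmgcs1 and Insig1 were both called higher by DESeq2 and by edgeR without a filter on low counts, and Hmgcs1 alone was called without WT CITCO replicate 3 (log2 fold change 1.38, adjusted p = 0.0211). Among all genes, 5 to 227 were called over the alternatives, against 22 by the main test.

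**Figure D2:**
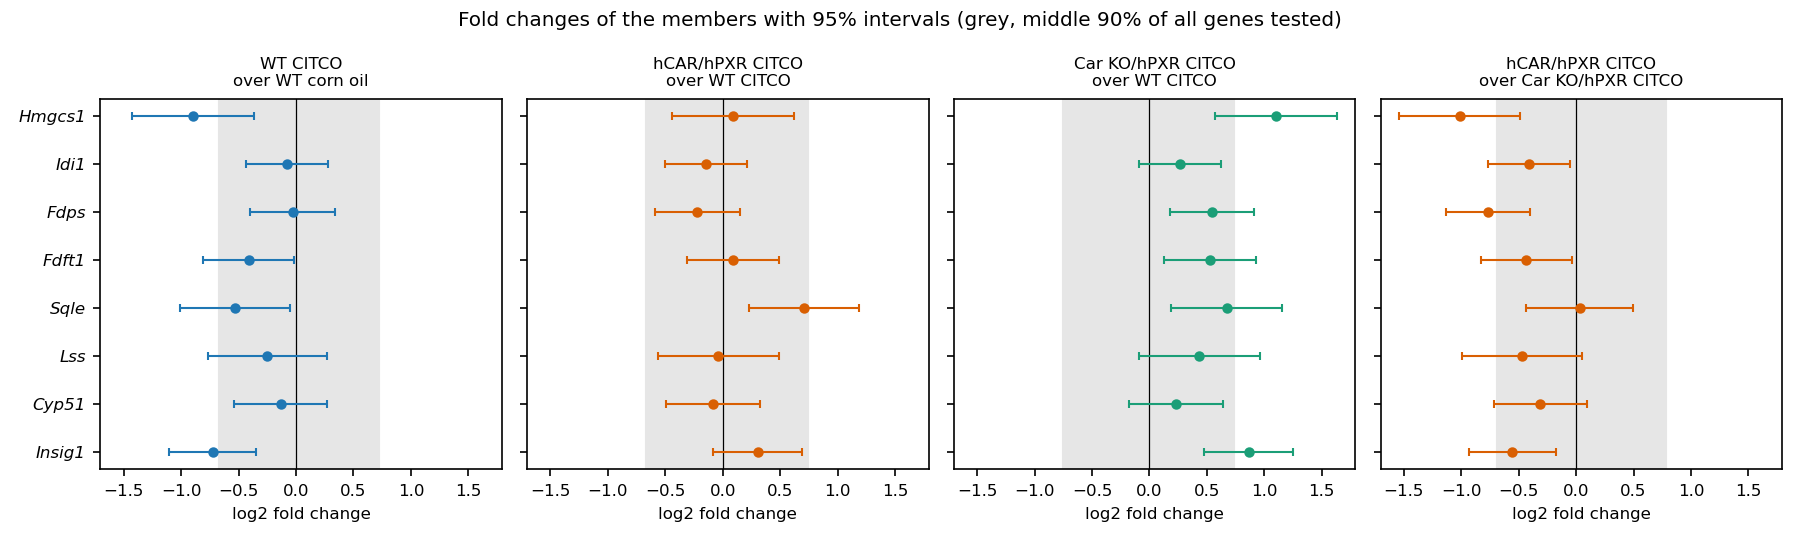
Log2 fold change of each gene (points) with its 95% interval (whiskers) in the 4 comparisons that involve CITCO-treated genotypes or WT treatment, with the grey band holding the middle 90% of all 8594 genes tested. All 8 points lie left of 0 for CITCO in WT mice and right of 0 for Car KO/hPXR over WT mice, and they scatter around 0 for hCAR/hPXR over WT mice.

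The hCAR/hPXR mice were compared with WT mice, both given CITCO, to ask what the human receptors change. The 8 genes did not move together, with 4 higher and 4 lower means and a median log2 fold change of 0.0245. None was called by edgeR (0.407% of all genes were), and 1 of 8, Sqle, had an unadjusted p under 0.05, against 8.81% of all genes. Sqle was higher by 0.71 ± 0.23 on the log2 scale (1.63-fold, adjusted p = 0.282) and was the 1 gene to lie above the WT mice without overlap, against 7.11% of all genes, with 0 below, against 6.56%. Its separation was narrow, 52.76 CPM in the lowest hCAR/hPXR library against 52.74 CPM in the highest WT CITCO library. With 8 genes, a count of 1 is near these shares.

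For the other 7 genes the intervals spanned 0. The 95% interval of the log2 fold change was -0.44 to 0.62 for Hmgcs1, -0.49 to 0.32 for Cyp51, -0.59 to 0.15 for Fdps and -0.08 to 0.69 for Insig1. A difference of 1.5-fold lay within the intervals of Hmgcs1, Insig1 and, narrowly, Fdps, and outside that of Cyp51. DESeq2 also called 0 of 8 genes.

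The hCAR/hPXR mice were next compared with Car KO/hPXR mice, both given CITCO and both carrying human PXR, so that CAR was the labelled difference. In hCAR/hPXR mice 7 of the 8 genes were lower, with a median log2 fold change of -0.453. Hmgcs1 differed by -1.01 ± 0.25 (2.02-fold lower, adjusted p = 0.078), Fdps by -0.77 ± 0.18 (1.70-fold lower, adjusted p = 0.0562) and Insig1 by -0.56 ± 0.18 (1.47-fold lower, adjusted p = 0.229). Sqle alone had a positive value, 0.03, with an interval of -0.43 to 0.50.

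By edgeR 0 of 8 genes were called in this comparison, beside 0.582% of all genes, made up of 0.303% called higher and 0.279% called lower. At an unadjusted p under 0.05 the count was 5 of 8, against 10.6% of all genes, and Hmgcs1, Fdps, Lss and Insig1 lay below without overlap, against 7.06% of all genes, with 0 above, against 8.02%. Hmgcs1 and Fdps were called lower by DESeq2 and without a filter on low counts, and Fdps with the size factors of DESeq2 in the edgeR fit. Among all genes, 10 to 233 were called over the alternatives, against 50 by the main test. This comparison shares its libraries with the 2 before it, so the values are not independent of theirs.

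Against WT mice given corn oil, treatment and genotype differ together. In hCAR/hPXR mice 7 of 8 genes were lower, with a median log2 fold change of -0.269, led by Hmgcs1 at -0.81 ± 0.25 (adjusted p = 0.179) and Insig1 at -0.42 ± 0.18 (adjusted p = 0.394). None was called, beside 0.989% of all genes, and 2 of 8 had an unadjusted p under 0.05, against 10.9%. Hmgcs1, Fdft1 and Insig1 lay below without overlap, against 7.73% of all genes, with 0 above, against 8.42%. DESeq2 and the fit without a filter each called Hmgcs1 lower, while 25 to 261 of all genes were called over the alternatives, against 85 by the main test. In Car KO/hPXR mice all 8 genes were higher, but the median was 0.163 and only 5 of 8 stayed positive without Car KO/hPXR CITCO replicate 1. Fdps had the largest value of the 8 there, 0.52 ± 0.17 (1.43-fold, adjusted p = 0.642), and was the 1 gene above the corn oil mice without overlap, against 5.57% of all genes, with 0 below, against 6.04%. It was also the 1 of 8 with an unadjusted p under 0.05, against 5.6%. With 8 genes, a count of 1 is near these shares. None of the 8 was called, where 0.0465% of all genes were.

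Other enzymes of the route had mostly the same directions. Of 14 further synthesis genes described here, all 14 were lower with CITCO in WT mice (median log2 fold change -0.418) and all 14 were higher in Car KO/hPXR than in WT mice given CITCO (median 0.592), the latter also with any of the 6 libraries left out and the former for 12 to 14. In hCAR/hPXR mice 13 of 14 were lower than in the Car KO/hPXR group (median -0.516). In hCAR/hPXR compared with WT mice 10 of 14 were higher and 4 lower, with a median of 0.119. Called at the full threshold were 0 of 14 in each of these comparisons, where 0.233%, 0.256%, 0.582% and 0.407% of all genes were, in the order given. At an unadjusted p under 0.05 the counts were 4, 9, 7 and 0 of 14, against 9.13%, 9.3%, 10.6% and 8.81% of all genes. In the test among the 4 groups Mvd, mevalonate diphosphate decarboxylase, passed (adjusted p = 0.0457), but with a single library left out it passed only without WT corn oil replicate 1 or without WT CITCO replicate 3, with an adjusted p of up to 0.18 without each of the other 10. Mvd had a log2 fold change of -1.23 ± 0.27 with CITCO in WT mice and of 1.23 ± 0.28 in Car KO/hPXR over WT mice given CITCO (adjusted p = 0.0742 and 0.0705).

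**Figure D3:**
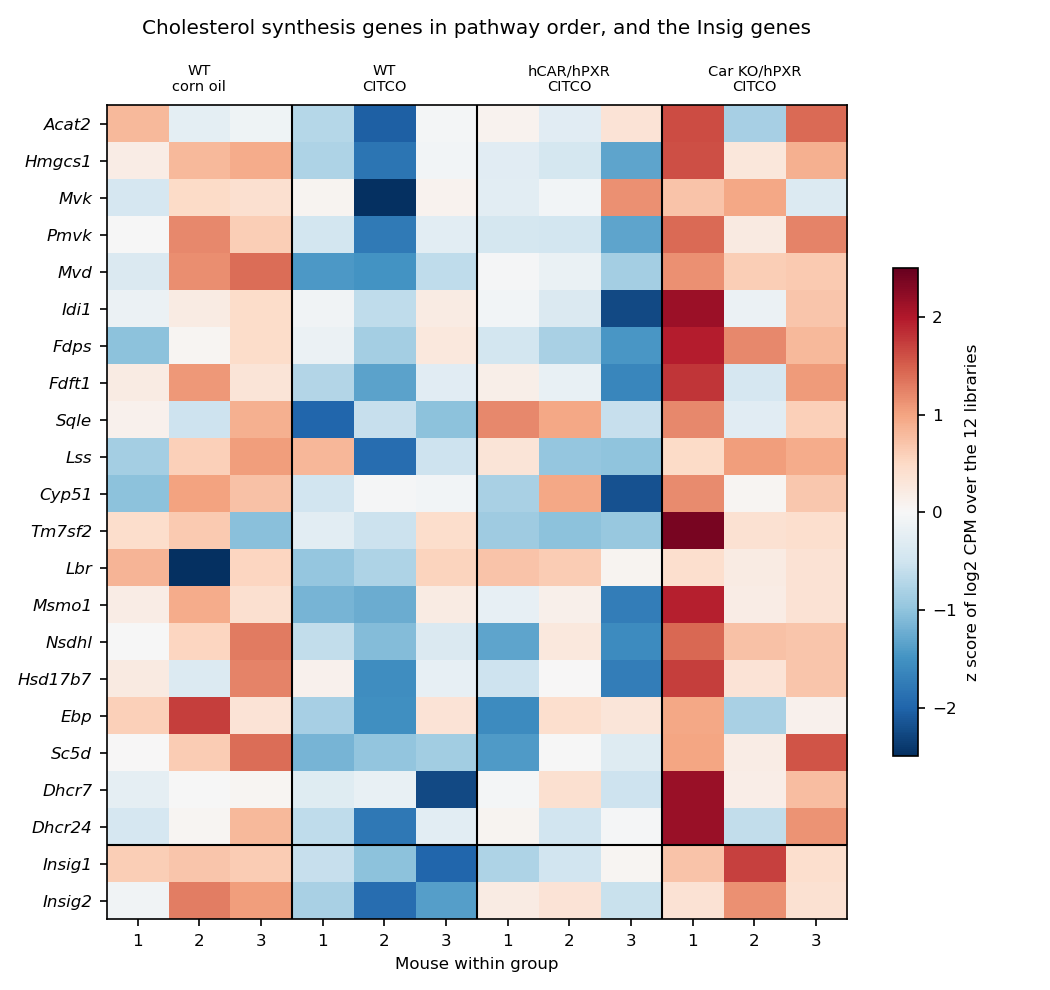
Z scores of log2 CPM over the 12 libraries (colour) for 20 enzymes in the order of the pathway and, below the line, both Insig genes; columns are mice, 3 per group. All 20 enzymes lie below their mean in WT CITCO replicate 2 and above it in Car KO/hPXR CITCO replicate 1, and 16 of 20 lie below it in hCAR/hPXR CITCO replicate 3.

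Among 11 genes that control SREBP, 10 were tested. Insig2, the second Insig gene, was the 1 that was called. It was called with CITCO in WT mice and in Car KO/hPXR over WT mice, where 0.233% and 0.256% of all genes were. Its level was 82.4, 149 and 134 CPM in WT mice given corn oil, 60.3, 37.7 and 47.3 CPM in WT mice given CITCO, 93.7, 99.6 and 67.6 CPM in hCAR/hPXR mice and 99.8, 141 and 102 CPM in Car KO/hPXR mice. The 3 WT CITCO mice were below all others. Insig2 was lower by 1.32 on the log2 scale with CITCO in WT mice (SE 0.24, adjusted p = 0.025). It was higher by 1.23 ± 0.24 in Car KO/hPXR over WT mice given CITCO (adjusted p = 0.0378). Both comparisons use the same 3 WT CITCO libraries, so these values are not independent. The mean of Insig2 was 114 CPM in Car KO/hPXR mice and 121.8 CPM in WT mice given corn oil. The call with CITCO in WT mice was lost without WT corn oil replicate 2 or 3 or WT CITCO replicate 1 or 2 (adjusted p up to 0.208). The call in Car KO/hPXR over WT mice was lost with any of its 6 libraries left out (0.0657 to 0.228). Insig2 also passed the test among the 4 groups (adjusted p = 0.0238), but not without WT corn oil replicate 2 or 3, WT CITCO replicate 2 or 3 or hCAR/hPXR CITCO replicate 1 (up to 0.138). In hCAR/hPXR over WT mice the log2 fold change of Insig2 was 0.85 ± 0.24 (adjusted p = 0.2).

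Srebf2 itself was counted at a low level, between 6.61 and 22.02 CPM, and its groups overlapped except that hCAR/hPXR mice (mean 16.93 CPM) lay above Car KO/hPXR mice (9.76 CPM). That separation was narrow, 11.45 CPM in the lowest hCAR/hPXR library against 11.37 CPM in the highest Car KO/hPXR library. Of all genes, 8.02% lay above without overlap in that comparison. The log2 fold change of Srebf2 was 0.16 ± 0.37 for CITCO in WT mice and -0.42 ± 0.39 for Car KO/hPXR over WT mice given CITCO (adjusted p = 0.944 and 0.796). The intervals, -0.63 to 0.94 and -1.24 to 0.41, held a 1.5-fold change in both directions for the first and a 1.5-fold fall, but no such rise, for the second.

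For uptake, 7 of 8 listed genes described here were tested. Of these, 0 were called in any of the 6 comparisons, where 0.0465% to 0.989% of all genes were called. At an unadjusted p under 0.05 the count was 0 to 2 of 7, against 5.6% to 10.9% of all genes. The median log2 fold change of the 7 uptake genes was -0.18 for CITCO in WT mice and 0.17 in Car KO/hPXR over WT mice given CITCO. Of 9 genes of sterol efflux and esterification, 7 were tested and 0 were called in any comparison, against the same 0.0465% to 0.989% of all genes. With 7 genes, a count of 0 called is near these shares.

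**Figure D4:**
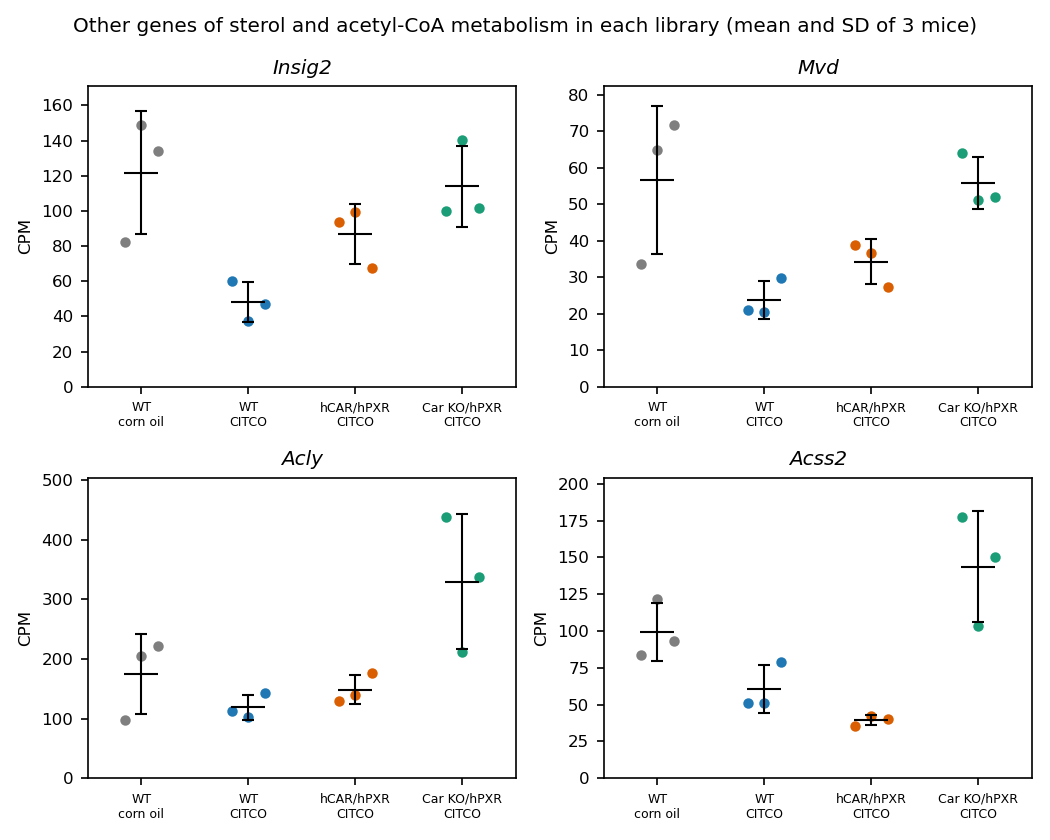
Levels in CPM (linear axes from 0) of Insig2, Mvd, Acly and Acss2 in the 12 libraries, with the mean ± SD of 3 mice per group. Acly and Acss2 are at their highest mean in Car KO/hPXR mice, Insig2 and Mvd at their lowest in WT mice given CITCO, and Acss2 is lowest in hCAR/hPXR mice.

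Of 10 genes of fatty acid synthesis and of acetyl-CoA supply 9 were tested. In Car KO/hPXR over WT mice given CITCO 8 were positive, with a median log2 fold change of 1.25. Called there were 2 of 9, Acly (1.47 ± 0.28, adjusted p = 0.0304) and Acss2 (1.25 ± 0.22, 0.0248), where 0.256% of all genes were. Acly encodes ATP citrate lyase and Acss2 the cytosolic acetyl-CoA synthetase, both sources of acetyl-CoA. Each of these calls was lost with the first or the second WT CITCO mouse, or with the first or the third Car KO/hPXR mouse, left out (adjusted p up to 0.21 and 0.198). Acss2 was also lower in hCAR/hPXR mice, by -1.87 ± 0.23 against Car KO/hPXR mice (adjusted p = 0.000597) and by -1.32 ± 0.23 against WT mice given corn oil (0.00659, and 0.0568 without WT corn oil replicate 2). Acss2 was the 1 of 9 genes called in each of these, where 0.582% and 0.989% of all genes were. With CITCO in WT mice 8 of 9 were lower, with a median of -0.546 and 0 called, where 0.233% of all genes were. In hCAR/hPXR over WT mice given CITCO 6 of 9 were positive, with a median of 0.325 and 0 called, where 0.407% of all genes were. Summed over the list, WT corn oil replicate 1 had 3135 CPM, the lowest of its group, as it did for 7 of the 8 cholesterol genes.

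Single clock and fasting genes were called as well, and their part in the cholesterol results was not tested. Of 14 clock genes tested, 1 was called in each of 2 comparisons and 0 in the other 4, and of 12 fasting genes tested likewise 1 in each of 2 and 0 in the other 4, where 0.0465% to 0.989% of all genes were called. Among the clock genes, Nr1d1, a repressor that also acts on hepatic lipid genes, was called higher in Car KO/hPXR over WT mice given CITCO (1.66 ± 0.31, adjusted p = 0.0298, and up to 0.205 with the first or the second WT CITCO mouse, or the second or the third Car KO/hPXR mouse, left out). Dbp was called lower in hCAR/hPXR over Car KO/hPXR mice (-0.96 ± 0.21, adjusted p = 0.039, and up to 0.212 with the first or the third mouse of either group left out). The 16 listed clock genes summed to 882 to 1140 CPM in Car KO/hPXR mice, 598 to 805 CPM in hCAR/hPXR mice, 757 to 797 CPM in WT mice given CITCO and 769 to 778 CPM in WT mice given corn oil. Among the fasting genes, Igfbp1, an insulin-repressed gene, was called higher in hCAR/hPXR over WT mice given CITCO (2.72 ± 0.37, adjusted p = 0.000783). Cyp4a10, a PPARα target, was called lower in hCAR/hPXR mice than in WT mice given corn oil (-2.09 ± 0.41, adjusted p = 0.0147, and up to 0.0938 without WT corn oil replicate 1 or any of the 3 hCAR/hPXR mice). In that last comparison the Kupffer cell gene Marco (1.82 ± 0.38, adjusted p = 0.0202) and the erythroid gene Alas2 (-1.01 ± 0.22, adjusted p = 0.0264) were also called. Of 7 Kupffer cell genes tested, 5 were higher, 2 lower and 1 called. Of 5 red blood cell genes tested, 0 were higher, 5 lower and 1 called, where 0.989% of all genes were called. Marco was no longer called with WT corn oil replicate 2 or 3 or hCAR/hPXR CITCO replicate 1 or 3 left out (up to 0.12), nor Alas2 with any library but hCAR/hPXR CITCO replicate 2 left out (up to 0.159).

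The 8 genes varied together across the 12 libraries to different degrees. Pearson correlation of each gene's log2 CPM with the mean z score of the other 7 was 0.928 for Hmgcs1, 0.881 for Fdft1, 0.823 for Idi1 and 0.805 for Fdps (Spearman 0.902, 0.832, 0.846 and 0.797). It was lower for Cyp51 (0.67), Lss (0.638), Insig1 (0.459) and Sqle (0.438). The libraries share a scaling factor and a group structure, so these values are descriptions over 12 points. After subtraction of group means the correlation was 0.374 to 0.877 for the 7 enzymes and -0.58 for Insig1. Within WT mice given CITCO, for example, Insig1 was lowest in replicate 3, where the mean of the other 7 was highest, and within hCAR/hPXR mice it was highest in replicate 3, where that mean was lowest.

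**Figure D5:**
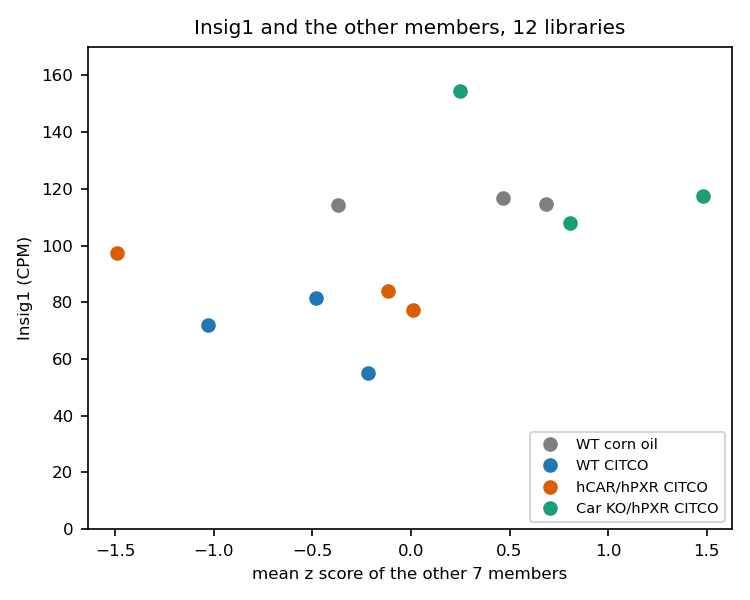
Insig1 in CPM against the mean z score of the other 7 genes, 1 point per library, coloured by group. Groups given CITCO in WT or hCAR/hPXR mice sit lower on both axes than Car KO/hPXR mice, while the deviations from the group means have a correlation of -0.58 over the 12 libraries.

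Among the tested genes most like the mean z score of the 8 over the 12 libraries were, by Pearson correlation of log2 CPM, Pmvk (0.936), Ropn1l (0.925), Msmo1 (0.904), Taldo1 (0.898), Nsdhl (0.897), Mvd (0.89), Hsd17b7 (0.889), Tsen34 (0.88) and Ugt1a5 (0.867). Their Spearman correlations lay between 0.755 and 0.923. Pmvk, Msmo1, Nsdhl, Mvd and Hsd17b7 are enzymes of the same route, and Taldo1 encodes transaldolase of the pentose phosphate pathway. Ropn1l had 7 to 32 counts per library. Ugt1a5 shares exons with the other Ugt1a genes and ranged from 0 to 228 counts, so its estimate is uncertain.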

How the data were processed

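Liver RNA from 12 adult male mice (4 groups of 3) was made into QuantSeq 3′ libraries for Ion Torrent sequencing. The authors aligned reads to GRCm38 with STAR 2.5.2 and deposited RSEM 1.3 expected counts per gene, of which 9.34% of values were not whole, together with log2-scale values from the variance-stabilising transformation of DESeq2. FastQC 11.7 and Trimmomatic 36 are named in the submitters' processing notes. How reads of overlapping genes were assigned by strand is not given in the sources used here.

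The expected counts were rounded. Genes were kept by edgeR 4.0.16 filterByExpr (R 4.3.3), TMM factors were applied, and 1 quasi-likelihood model was fitted to all 12 libraries, with 1 mean per group, 6 pairwise contrasts and a test of any difference among the 4 groups. P-values were adjusted by Benjamini-Hochberg over 8594 genes, and a gene was called at an adjusted p under 0.05 and a fold over 1.5. The scripts were tested on simulated data. Alternatives were DESeq2 1.42.0 (the tool named in the study's methods), its size factors, no filter, a replicate block, limma 3.58.1 on the deposited log2 values, fits of the compared groups alone and leaving out each library. Replicates differed beyond sampling noise, and p-values measure only the spread between these libraries.

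The genes described were the 8 members in every comparison, genes of the companion lists called in any comparison, Srebf2, and genes among the 10 most correlated with the members. Some genes that this rule or the lists held are not reported here and were left out of the counts over lists. Mvd was named for passing the test among groups, and Marco and Alas2 as the called marker genes, after their values were seen. The members and lists were chosen with earlier results of these data known.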

Additional observations from a re-analysis of the deposited data

How the results depend on the processing

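All alternatives gave 0 of the 8 genes called in hCAR/hPXR over WT mice given CITCO and in Car KO/hPXR mice over WT mice given corn oil. Without a filter on low counts, edgeR called 2 genes with CITCO in WT mice, 2 in Car KO/hPXR over WT mice, 2 in hCAR/hPXR over Car KO/hPXR mice and 1 in hCAR/hPXR mice over WT mice given corn oil. DESeq2 called 2, 2 and 1 in the last 3 of these comparisons. DESeq2 size factors called 1 in hCAR/hPXR over Car KO/hPXR mice, and leaving out each library called 0 to 1 in Car KO/hPXR over WT mice. In the test among the 4 groups, DESeq2 and the fit without a filter passed 3 genes each, adding Fdps to Hmgcs1 and Insig1, limma on the deposited values passed 0, the fit with a replicate block 1, and leaving out each library 0 to 1. The cause of these differences was not tested. DESeq2 and the fit without a filter each took in 20067 genes, against 8594 in the main test. The counts over all genes that follow are ranges over the alternatives and are not tied to a setting. The member counts of single settings therefore have no share of all genes beside them. Counts over all genes varied as well, from 6 to 179 (20 as reported) for CITCO in WT mice, 17 to 184 (35) for hCAR/hPXR over WT mice, 5 to 227 (22) for Car KO/hPXR over WT mice, 10 to 233 (50) for hCAR/hPXR over Car KO/hPXR mice, 25 to 261 (85) and 3 to 95 (4) for hCAR/hPXR and Car KO/hPXR mice over corn oil, and 60 to 540 (122) for the test among groups.

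Same-numbered libraries shared little deviation from their group means, with correlations between -0.0568 and 0.075 (median 0.0288) over 18 pairs. These values do not show whether the mice or libraries were paired or handled together. The block passed Hmgcs1 alone in the test among groups.

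Some signs turned. With single libraries left out, the log2 fold change of CITCO over corn oil in WT mice ranged from -0.1647 to 0.08345 for Fdps and from -0.09784 to 0.4254 for Srebf2. In hCAR/hPXR over WT mice it ranged from -0.1722 to 0.3673 for Hmgcs1, from -0.03446 to 0.2315 for Fdft1, from -0.2706 to 0.2469 for Lss and from -0.3365 to 0.08902 for Cyp51. For Sqle in hCAR/hPXR over Car KO/hPXR mice the range was -0.1099 to 0.2024, and limma on the deposited values gave -0.0001485. In Car KO/hPXR mice over WT mice given corn oil the ranges were -0.03538 to 0.3848 for Hmgcs1, -0.01104 to 0.2882 for Sqle, -0.05015 to 0.2811 for Fdft1, -0.001954 to 0.3365 for Lss, -0.05612 to 0.2019 for Cyp51 and -0.02724 to 0.235 for Insig1. With 3 mice per group and the counts of Srebf2 at 6.61 to 22.02 CPM, a 1.5-fold change of that gene with CITCO in WT mice, in either direction, lay within its interval.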
